A study of Mus musculus with 7 samples.

Results

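The genes described here are the nuclear genes of the oxidative phosphorylation system in mouse thymic epithelial cells, measured by droplet single-cell RNA sequencing. They were chosen by symbol as every listed gene whose name starts with Nduf, Uqcr or Atp5, or with Cox4 to Cox8. This gave 87 of the 20839 genes listed in any of 7 libraries: 38 under complex I, 7 complex I assembly factors, 8 under complex III, 17 under complex IV and 17 under complex V. The groups follow the symbols, not proven membership: Ndufa4, grouped under complex I by its name, is known as a subunit of complex IV, and Atp5s and Atp5sl, grouped under complex V, are listed by RefSeq as Dmac2l and Dmac2. Of these, 86 were listed in every library, Cox7b2 in 3, and the testis isoform Cox8c in none. Each library came from 3 pooled C57BL/6 thymi sorted for EpCAM+ CD45- cells. One library, the Aire trace, came from mice aged 6 weeks that carried Aire-CreERT2, in which Cre follows the Aire promoter, with R26-CAG-Stopfl-zsGreen, and that had been dosed with tamoxifen (2 mg on alternate days over 10 days). The other 6 came from mice given 3 injections of 100 µg antibody within 1 week: isotype control at week 2 (age 4 weeks) and week 10 (age 12 weeks), and anti-RANKL at weeks 2, 4, 6 and 10 (ages 4, 6, 8 and 12 weeks). RANKL is the cytokine on which maturation of medullary thymic epithelial cells (mTECs) depends, and each anti-RANKL time point was a single library.

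Oxidative phosphorylation is carried out in the inner mitochondrial membrane. Complex I (NADH dehydrogenase), complex III (cytochrome bc1) and complex IV (cytochrome c oxidase) pass electrons to oxygen and pump protons, and complex V (ATP synthase) uses the proton gradient to make ATP. Most subunits are encoded in the nucleus and a small hydrophobic core by mitochondrial DNA, so that assembly joins products of both genomes. Mature mTECs express Aire, a regulator that brings many tissue-restricted genes into the thymus, and thymic tuft cells are chemosensory epithelial cells marked by the channel Trpm5.

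Cells were compared by fixed gates on marker transcripts. Of 8453 cells, 233 with any Ptprc (CD45) and 172 under 2000 UMIs (unique molecular identifiers, one per captured transcript) were set aside, which left 8048. Cells with at least 3 of Top2a, Birc5, Cdk1 and Ube2c above 0 formed the cycling gate (477 cells). Of the others, 1441 passed only Aire > 1.5, 3118 only Ccl21a > 4 and 329 only Trpm5 > 0, on the natural-log scale of the files, while 212 passed more than 1 of these gates and 2471 passed none. The marker list of each gate holds the gene that set the gate, so a high sum there was partly built in. The summed level of the tuft list ran from 40.6 to 61.4 UMIs per 10000 across the libraries in the Trpm5 gate and reached 1.71 at most in the other gates. The Aire mTEC list ran from 17.8 to 22.0 in the Aire gate, and the Ccl21a list from 285 to 375 in the Ccl21a gate. In cycling cells the Aire mTEC list ran from 2.90 to 12.4 and the Ccl21a list from 13.9 to 163. T cell transcripts were present in some cycling cells: their summed level was 3.65 in the anti-RANKL week 4 library, 1.09 at week 6, 0.914 at week 10 and at most 0.181 in the other libraries, beside 0.0502 to 1.21 in the Aire gate. All of these cells were at 0 for Ptprc by the gate, and the part of T cell transcripts in the results was not tested beyond leaving out the cells that held them. Median depth per library ran from 4299.5 UMIs (anti-RANKL week 6) to 16809 (isotype control week 2), and median depth per gate from 7077.5 (Ccl21a) to 22383 (cycling). The libraries shared 50 cell barcodes between pairs. Gates were thin in places, with 20 Aire and 12 cycling cells at anti-RANKL week 4, 17 cycling cells each at weeks 2 and 6, and 20 Trpm5 cells at week 6. Levels below are means over the cells of a gate in 1 library, in UMIs per 10000 UMIs of the cell. Cells are not replicates, so the tests compare library means (n = 7) with the library as a block. Their p-values measure how much the differences between gates vary from library to library, pooled over all gates.

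Summed over the 87 members, oxidative phosphorylation transcripts were highest in the Trpm5 gate and lowest in the Ccl21a gate. The lowest, median and highest libraries held 333, 358 and 423 UMIs per 10000 in the Trpm5 gate (364 ± 28.6, SD, n = 7) and 248, 267 and 280 in the Ccl21a gate (268 ± 10.5). The Aire gate lay between them at 277, 302 and 322 (297 ± 15.3), as did the cycling gate at 295, 311 and 321 (310.3 ± 9.3). No library of the Trpm5 gate overlapped with any library of the other gates. Within each library, the Trpm5 gate was above the Ccl21a gate by 1.36-fold and above the Aire gate by 1.22-fold, in 7 of 7 libraries each. The Aire gate exceeded the Ccl21a gate by 1.11-fold in 7 of 7, and the cycling gate exceeded the Aire gate by 1.04-fold in 6 of 7, a difference of 12.96 ± 17.98 UMIs (SD) that was smaller than its spread.

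**Figure D1:**
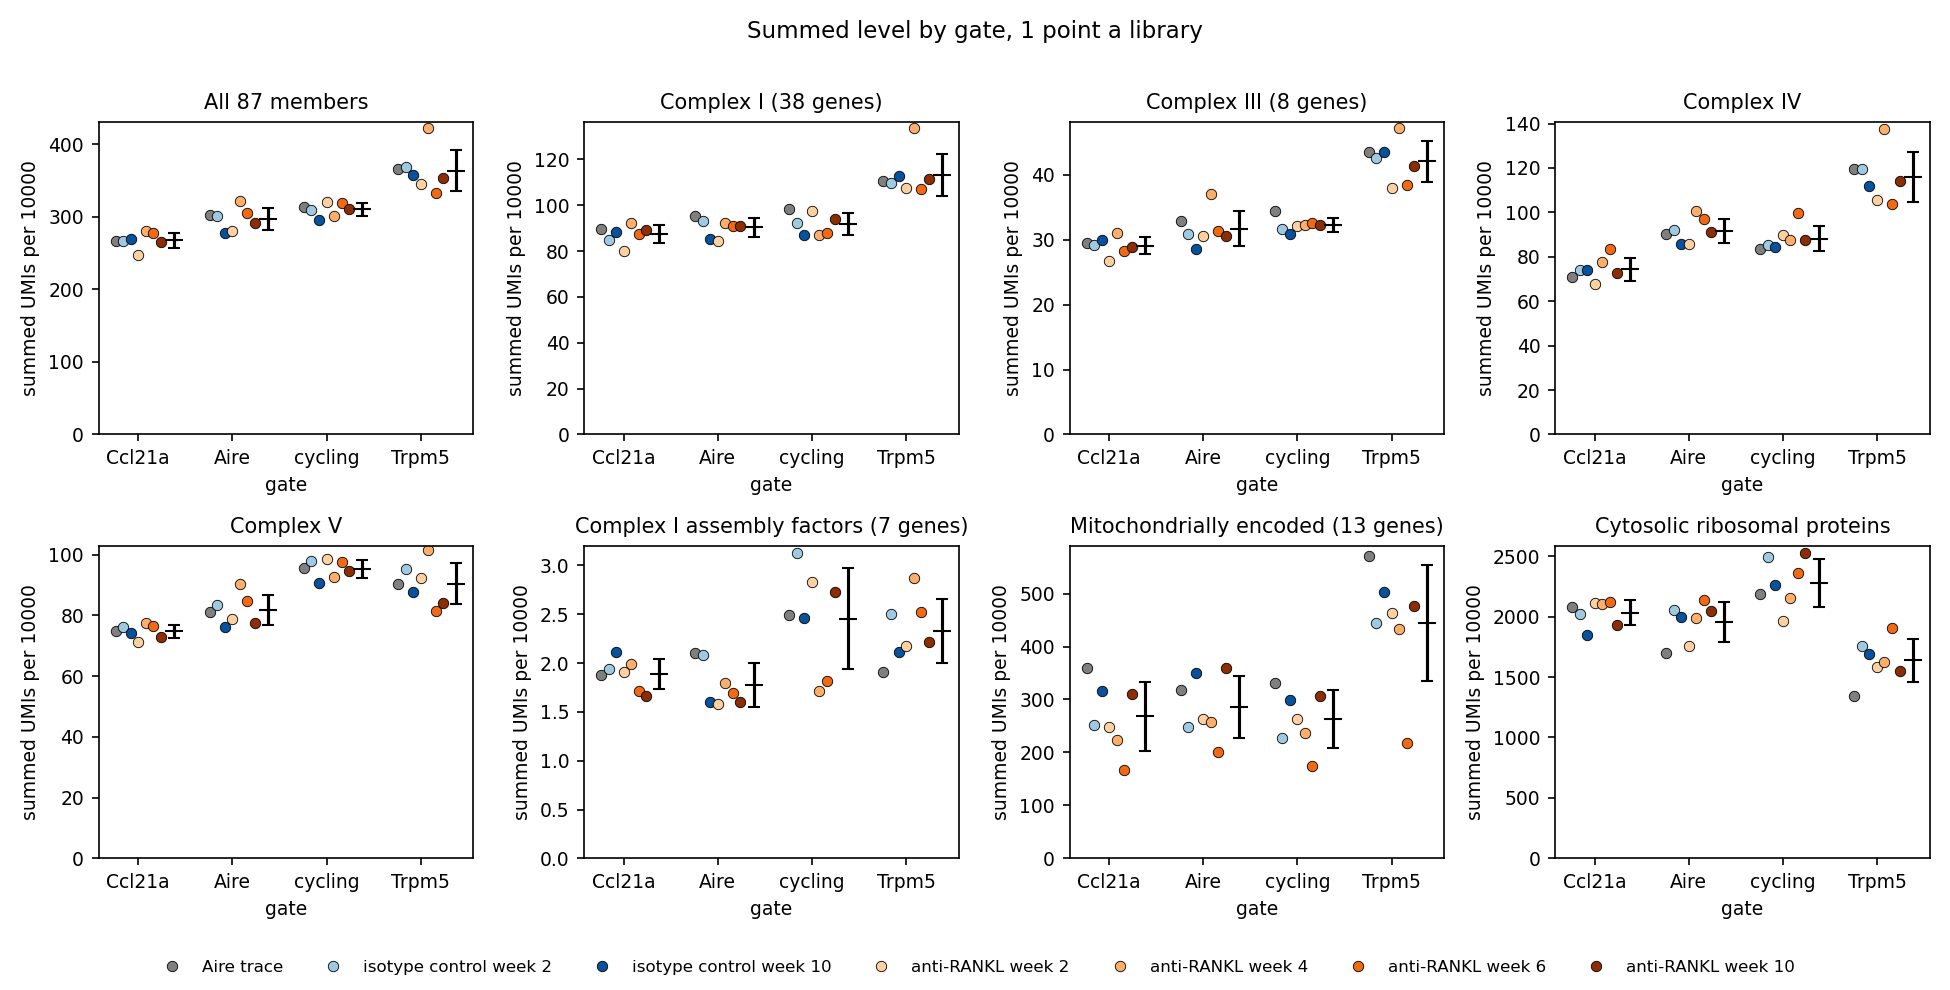
Summed level of the 87 nuclear oxidative phosphorylation genes (UMIs per 10000 UMIs of a cell, linear axis) by gate, with 1 point per library and the mean and SD over 7 libraries. Every Trpm5 point (333 to 423) lies above every point of the other gates, and the Ccl21a gate is lowest at 248 to 280.

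The complexes did not follow a single order. Complex IV showed the widest gap, with 116 ± 11.2 UMIs per 10000 in the Trpm5 gate against 74.4 in the Ccl21a gate, 1.56-fold on average. Complex III was 42.1 against 29.1 (1.44-fold) and complex I 113 against 87.5 (1.29-fold). Complex V was different. Its highest mean was in cycling cells (95.3 ± 2.9), followed by the Trpm5 gate (90.4 ± 6.8), the Aire gate (81.8 ± 4.9) and the Ccl21a gate (74.7 ± 2.2), and cycling exceeded Aire in 7 of 7 libraries by 1.17-fold. For complex I the Aire and cycling gates (90.4 and 92.0) could not be separated, with cycling higher in 4 of 7 libraries. The 13 mitochondrially encoded subunits summed to 444 ± 109 UMIs per 10000 in the Trpm5 gate, 1.64-fold the Ccl21a gate and 1.53-fold the Aire gate in 7 of 7 libraries each, and cycling exceeded Aire in 1 of 7. Cytosolic ribosomal protein transcripts went the other way in the Trpm5 gate, 0.803-fold the Ccl21a gate and lower in 7 of 7. They take a large part of a cell's UMIs (1637 ± 176 of each 10000 in the Trpm5 gate), so that any share measured against the total moves when they do.

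Tested gene by gene with limma over 8759 genes (28 library and gate means, Benjamini-Hochberg adjusted p under 0.05), 81 members passed the filter on low values. The 5 comparisons share gates, so each is read on its own. In the Trpm5 gate against the Ccl21a gate, 43 of the 81 were higher and 3 lower, beside 25.1% and 20.1% of all genes tested. The median member differed by 0.32 on the log2 scale and the median gene by 0.04. With single libraries left out, the number of members lower ran from 1 to 6. Against the Aire gate, 45 were higher and 5 lower, beside 31.0% and 18.4% of all genes, with medians of 0.27 for members and 0.15 for all genes. The counts depended on the scale. With the median gene of each library and gate mean set to 0, they were 20 higher and 13 lower against Aire. There 60.6% of calls were higher in place of 90.0%. Against Ccl21a they were 31 and 9 (77.5% in place of 93.5%). The median member then differed by 0.066 from Aire and 0.167 from Ccl21a, and the median gene by -0.052 and -0.113. The median member thus lay above the median gene in this setting too. With overlapping gates the member medians were 0.176 and 0.201. There were 35 members higher in the Trpm5 gate than in both others, beside 17.0% of all genes. Complex I gave 21 higher and 2 lower of 37 against Ccl21a, complex III 4 and 0 of 8, complex IV 9 and 0 of 13, complex V 8 and 1 of 16, and the assembly factors 1 and 0 of 7.

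Ndufv3 (chr17:31520115-31531331, plus strand, mm10), an accessory subunit on the NADH-oxidizing flavoprotein part of complex I, differed most. Its lowest, median and highest libraries held 3.81, 4.35 and 5.49 UMIs per 10000 in the Trpm5 gate, 1.53, 1.71 and 2.01 in the Ccl21a gate and 1.83, 2.10 and 2.69 in the Aire gate. The Trpm5 libraries overlapped with neither. The log2 difference was 1.32 ± 0.09 (SE) from the Ccl21a gate (adjusted p = 1.4e-12) and 1.03 ± 0.09 from the Aire gate (adjusted p = 2.23e-10). Its partner Ndufv1, the subunit that binds NADH, went the other way, 0.63 ± 0.18 (SD) in the Trpm5 gate against 0.83 ± 0.07 in the Ccl21a gate, a log2 difference of -0.38 (adjusted p = 0.0168) with 1 of 7 libraries higher. Ndufa1, a small membrane-arm subunit, had 3.46, 4.82 and 5.83 UMIs per 10000 in the Trpm5 gate and 1.87, 2.35 and 2.46 in the Ccl21a gate, 1.05 ± 0.10 apart on the log2 scale (adjusted p = 2.75e-09). Ndufs7, which carries an iron-sulphur cluster next to the quinone site, had 2.78, 3.01 and 3.50 in the Trpm5 gate and 1.25, 1.36 and 1.84 in the Aire gate, 1.02 ± 0.09 apart (adjusted p = 9.94e-11) and without overlap. Ndufa11 was an exception: it was lower than in the Ccl21a gate in 7 of 7 libraries, with a log2 difference of -0.81 (adjusted p = 1.94e-07), and 0.23 above the Aire gate (adjusted p = 0.0569).

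In complexes III and IV, small subunits led. Cox6a1, the ubiquitous form of subunit VIa, had 7.499, 9.42 and 12.6 UMIs per 10000 in the Trpm5 gate against 3.83, 4.63 and 5.21 in the Ccl21a gate, a log2 difference of 1.07 ± 0.09 (adjusted p = 2.71e-10). Cox8a and Cox7a2, also small subunits of the oxidase, differed by 0.94 and 0.95. No Trpm5 library of Cox8a (19.6 to 29.2) reached as low as the highest Aire library (17.4), which came from the 20 cells of anti-RANKL week 4. Uqcr10, a small subunit of complex III, had 6.94, 8.93 and 10.7 in the Trpm5 gate against 4.08, 4.53 and 8.49 in the Aire gate, 0.81 ± 0.09 apart (adjusted p = 4.22e-08), and here the groups overlapped through the same small Aire library. Among the members lower in the Trpm5 gate than in the Aire gate were Ndufc2 (-0.79, adjusted p = 2.19e-04), the stator subunit Atp5f1 (-0.36) and Cox4i1 (-0.21). The Cox4i1 call was lost in 2 of 23 alternative settings. The 5 also count the isoform Cox6b2, which passed the filter on low values only through its levels in the Aire and cycling gates. Besides Ndufa11 and Ndufv1, the F1 alpha subunit Atp5a1 was lower than in the Ccl21a gate (-0.21, adjusted p = 0.0333). The Atp5a1 call was lost in 6 of 23 alternative settings, among them leaving out either isotype control or anti-RANKL week 2, 6 or 10, and that of Ndufv1 without the isotype control of week 10 (-0.30).

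**Figure D2:**
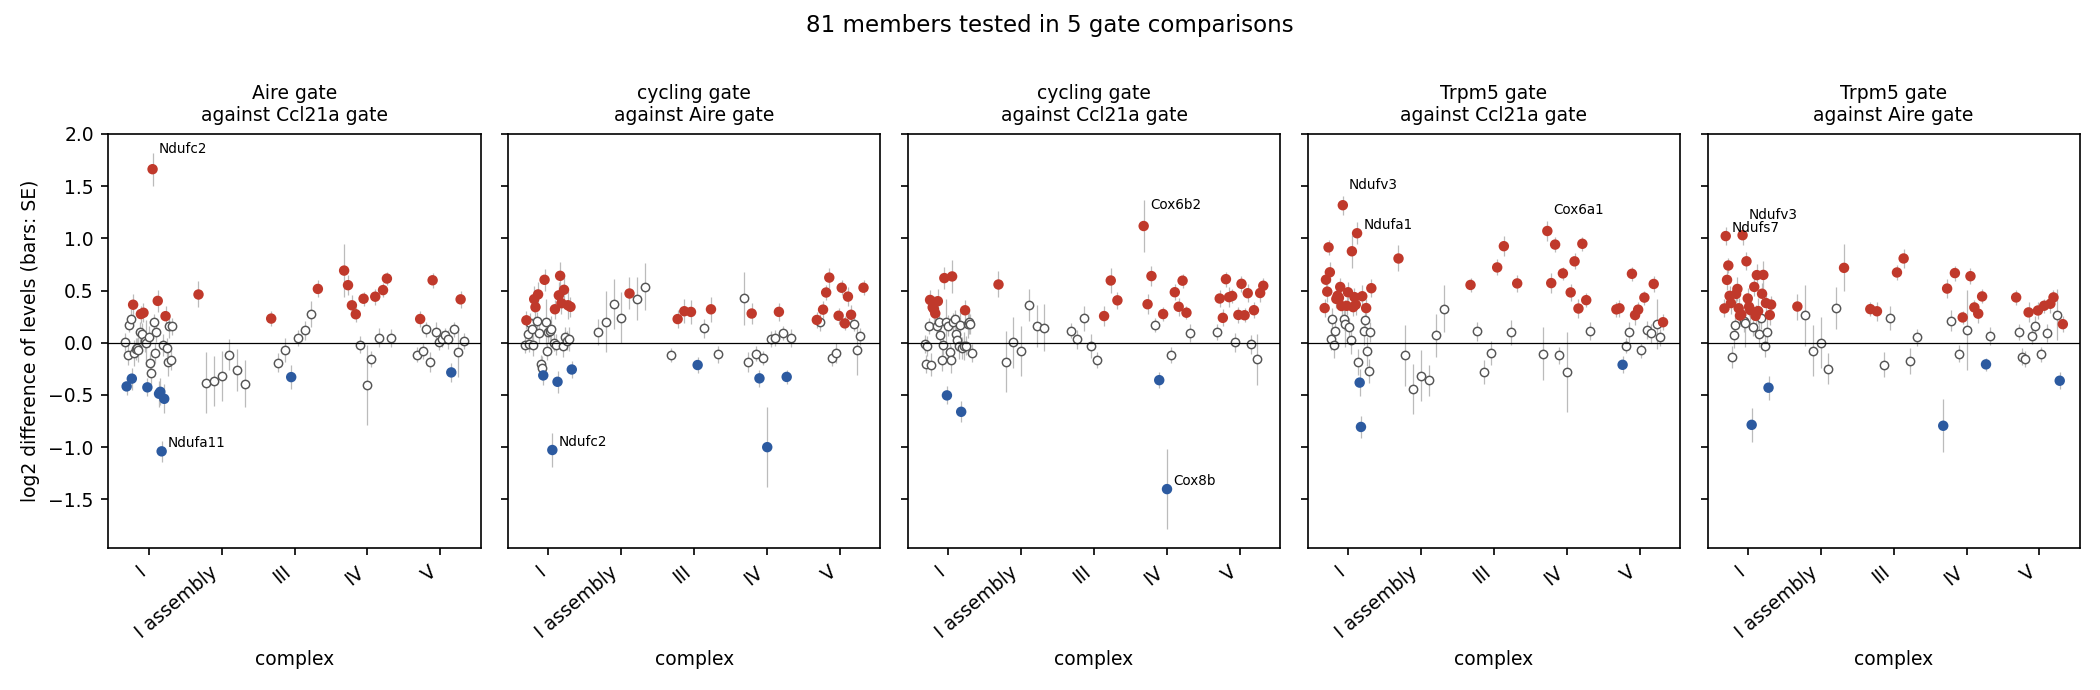
Log2 difference of each tested member (81 genes, grouped by complex) in the gate comparisons, with filled points where the limma adjusted p was under 0.05, error bars of 1 SE and names at called differences over 1. In the Trpm5 gate most points of complexes I, III, IV and V lie above 0, with Ndufa11 at -0.81 against the Ccl21a gate, and Ndufc2 at 1.66 tops the comparison of Aire with Ccl21a.

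Among the members, the shift in the Trpm5 gate was larger for short transcripts. The 40 tested members whose longest coding transcript in GENCODE vM21 had under 913 bases gave 30 higher and 0 lower against the Ccl21a gate, with a median log2 difference of 0.41. The 40 longer members gave 13 higher and 3 lower, with a median of 0.10. Across the 80 members with a length, Spearman's rho was -0.426 in that comparison and 0.36 for cycling against Aire, where the longer members gave 19 higher and 3 lower and the shorter 9 and 5. Members share libraries and cells, so these are descriptions across genes. The part of transcript length or RNA integrity in the result was not tested. Genes outside the members were not split by length, so whether short transcripts in general were higher in the Trpm5 gate is not known. Over all genes tested, of any length, 25.1% were higher and 20.1% lower than in the Ccl21a gate. Cells of 1 gate with 2 further tuft markers (269 of the 329, a setting chosen after seeing the data) gave 44 higher and 6 lower against Ccl21a and 48 and 5 against Aire.

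The comparison of Aire with Ccl21a cells had members called in both directions. Of 81, 20 were higher in the Aire gate and 9 lower, beside 18.9% and 26.9% of all genes, and the median member differed by 0.02 (all genes -0.13). When ribosomal, mitochondrial and Ccl21 transcripts were left out of the total, the counts were 17 and 14. The median member was then at -0.04 and the median gene at -0.17. The direction of the member median thus depended on the scale, while it lay above the median gene in both settings. Complex IV was one-sided, with 8 of 13 higher and none lower. The 8, and with it the 20, count Cox6b2, which passed the filter on low values only through the Aire and cycling gates. Complex I was mixed, with 6 higher and 7 lower of 37, while complex III gave 2 and 1 of 8, complex V 3 and 1 of 16, and the assembly factors 1 and 0 of 7. Cox4i1, the ubiquitous form of a regulatory subunit of the oxidase, had 12.4, 14.5 and 15.7 UMIs per 10000 in the Aire gate and 8.72, 9.48 and 10.1 in the Ccl21a gate, with no overlap and a log2 difference of 0.61 ± 0.06 (adjusted p = 1.35e-08).

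A pair of complex I genes stood at opposite ends. Ndufc2 (chr7:97400003-97407802, plus strand, mm10, GENCODE vM21), a membrane-arm subunit, had 4.34, 8.42 and 10.2 UMIs per 10000 in the Aire gate and 1.88, 2.42 and 2.74 in the Ccl21a gate. No libraries overlapped, and the log2 difference was 1.66 ± 0.16 (fold 3.16, adjusted p = 7.55e-09, 7 of 7 libraries). Ndufa11 (chr17:56717767-56722141, plus strand), another membrane-arm subunit, had 2.52, 2.90 and 4.24 in the Aire gate and 5.63, 6.72 and 7.79 in the Ccl21a gate, again without overlap, and differed by -1.04 ± 0.10 (adjusted p = 4.01e-09). A gene on the opposite strand, Vmac, overlaps the exons of Ndufa11, and whether the counting used strand is not given in the sources used here. The other members lower in the Aire gate were Ndufa5 (1.60 ± 0.25 against 2.36 ± 0.27, log2 -0.54, adjusted p = 0.00205), Ndufs3 (-0.49), Ndufv1 (-0.47), Ndufa6 (-0.43), Ndufs7 (-0.42), Ndufs8 (-0.34), the complex III core protein Uqcrc1 (-0.33) and Atp5h (-0.28). Ndufs3, Ndufs7, Ndufs8 and Ndufv1 belong to the core subunits, as does Ndufv2, which was higher (0.36). Of the smallest differences, the call of Uqcrc1 was lost in 6 of 23 alternative settings (among them without either isotype control or anti-RANKL week 10), that of Ndufs8 in 3 (among them without the isotype control of week 10) and that of Atp5h in 2 (among them without anti-RANKL week 10).

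**Figure D3:**
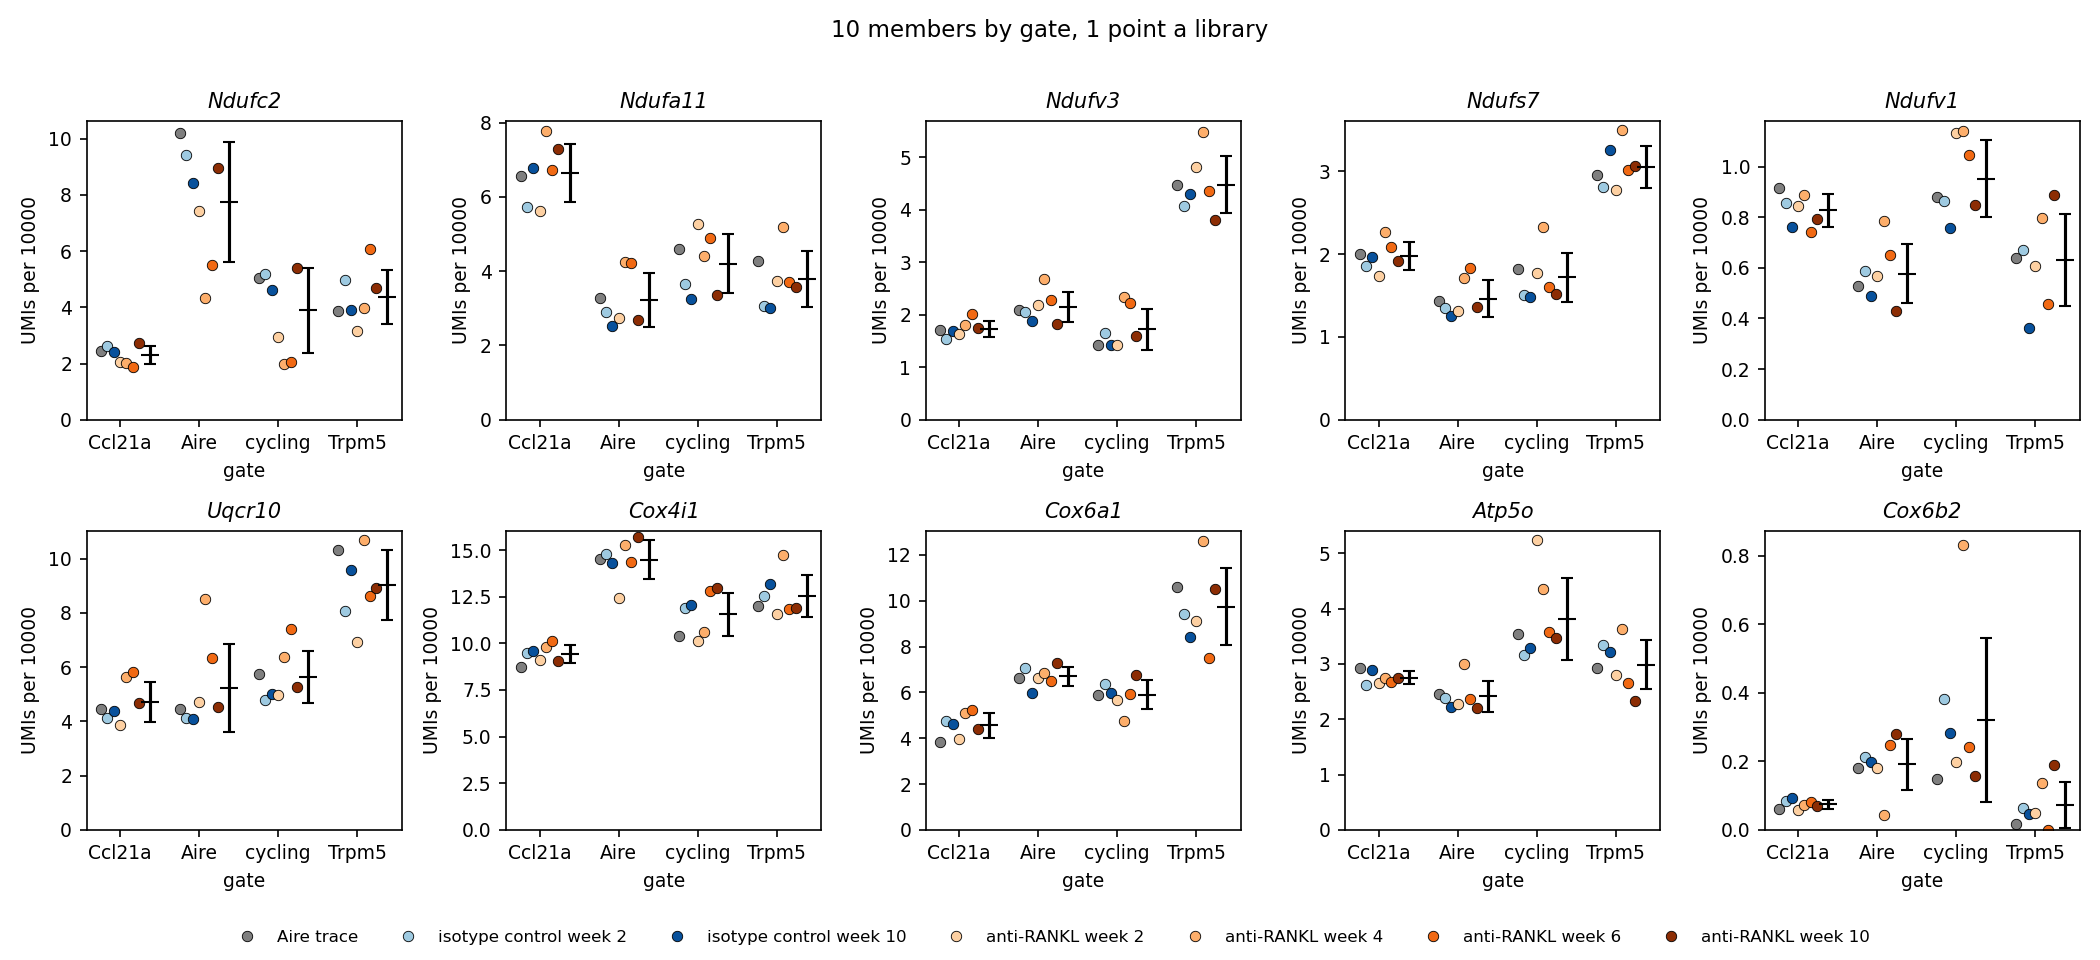
Levels (UMIs per 10000, linear axes from 0) of 10 members named in the text, by gate, 1 point per library with the mean and SD over 7 libraries. Ndufc2 is highest in the Aire gate and Ndufa11 in the Ccl21a gate, Ndufv3 and Cox6a1 are highest in the Trpm5 gate, and every cycling library of Atp5o (3.16 to 5.25) lies above every Aire library.

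Cycling cells had more complex V transcript. Against the Aire gate, 29 of 81 members were higher and 8 lower (19.3% and 16.9% of all genes), and against the Ccl21a gate 32 and 4 (15.1% and 18.6%). The median member differed by 0.14 and 0.18, and the median gene by 0.04 and -0.05. In complex V, 10 of 16 were higher than in the Aire gate, 12 of 16 higher than in the Ccl21a gate, and none lower. Complex I gave 12 higher and 4 lower against Aire, and 8 and 2 against Ccl21a. Complex III gave 4 and 1, then 3 and 0. Complex IV gave 2 and 3, then 8 and 2, and the assembly factors 1 and 0 in each comparison. The 8, and with it the 32, count Cox6b2, which passed the filter on low values only through the Aire and cycling gates. There were 15 members higher in cycling cells than in both other gates (7.51% of all genes): Atp5a1, Atp5b, Atp5c1 and Atp5o of the ATP synthase F1 part and stalk, its proton-channel subunits Atp5g2 and Atp5g3, its membrane and stator subunits Atp5j and Atp5j2, Ndufa9, Ndufa12, Ndufab1 and Ndufb6 of complex I, Uqcrfs1, the Rieske protein of complex III, and Cox5a and Cox5b of complex IV. Cox7a2l was lower than in both (2.50% of all genes), a count that also holds Cox8b, whose place in the test rested on its levels in the other gates.

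Atp5o, in the stalk that joins the F1 head to the membrane part, had 3.16, 3.54 and 5.25 UMIs per 10000 in cycling cells and 2.197, 2.36 and 2.99 in the Aire gate, a log2 difference of 0.62 ± 0.10 (adjusted p = 8.62e-06), without overlap. Atp5b, the catalytic beta subunit, had 9.55, 10.6 and 12.4 in cycling cells and 6.49, 7.28 and 8.48 in the Aire gate. Both genes were thus higher in every cycling library than in any Aire library. Ndufab1, the mitochondrial acyl carrier protein that is also a complex I subunit, had 2.24, 3.02 and 3.21 against 1.58, 1.92 and 2.01 (0.60 ± 0.11, adjusted p = 4.62e-05). Ndufv1 differed by 0.64 ± 0.13 from the Aire gate (adjusted p = 2.53e-04), with 0.756, 0.880 and 1.14 against 0.429, 0.567 and 0.785. Cox5a, a matrix-side subunit of the oxidase, had 4.37, 4.84 and 6.13 in cycling cells and 2.86, 3.05 and 3.59 in the Ccl21a gate (0.64 ± 0.10, adjusted p = 1.05e-05). Opposite to the majority, Ndufc2 (-1.03), Ndufa1 (-0.37), Cox7a2l (-0.34), Cox4i1 (-0.33), Ndufv3 (-0.31), Ndufb2 (-0.26) and Uqcrh (-0.21) were lower than in the Aire gate, and Ndufa11 (-0.66), Ndufa6 (-0.50) and Cox7a2l (-0.36) lower than in the Ccl21a gate. The counts of 8 and 4 also hold Cox8b, whose call against the Aire gate was lost in 12 of 21 alternatives, among them without the Aire trace, the isotype control of week 2 or anti-RANKL week 2 or 10. Against the Aire gate, Ndufb2 lost its call in 10 of 23, among them without anti-RANKL week 4 or 6, and Uqcrh in 8 of 23, among them without the Aire trace, either isotype control or anti-RANKL week 10.

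The count against the Aire gate moved with the libraries and cells included. It was 19 higher without the isotype control of week 10, 19 without anti-RANKL week 2, 18 without anti-RANKL week 10, 18 without all 4 anti-RANKL libraries, 15 with gates set on cells thinned to 2000 UMIs and 12 without the 5% of cells with most UMIs. Without cells holding a T cell marker, 23 were higher and 5 lower than in the Aire gate, and 38 and 5 relative to the Ccl21a gate. The 32 higher than in the Ccl21a gate became 20 when cycling cells also had to pass that gate.

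Of the 81 tested members, all but 7 passed the test in at least 1 of these 5 comparisons, beside 79.3% of all genes. The 7 were the core subunit Ndufs1, the assembly factors Ndufaf1, Ndufaf5, Ndufaf6 and Ndufaf7, Atp5sl and Cox7b. The 6 members not tested for low levels were Atp5s, Cox4i2, Cox6a2, Cox7a1, Cox7b2 and Ndufa4l2. Most of these are the second copies of subunits that have a ubiquitous and a tissue-restricted form.

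Tissue-restricted forms were rare beside their ubiquitous partners, and over all libraries Cox7a1, Cox6a2 and Cox6b2 had a UMI in a larger share of Aire than of Ccl21a cells, a difference that was not tested. The partners (Cox4i1, Cox6a1, Cox6b1, Cox7a2, Cox7b, Cox8a and Ndufa4) had a UMI in at least 88.5% of the cells of each gate. Cox7a1, the heart and skeletal muscle form of subunit VIIa, had a UMI in 9.58% of Aire cells, 0.609% of Ccl21a cells, 7.60% of Trpm5 cells, 7.34% of cycling cells and 7.02% of the 228 Ptprc-positive cells of at least 2000 UMIs. Those cells came through the same EpCAM+ CD45- sort, and 83.8% of them held a UMI of Epcam, so their shares are given beside the gates and not as a level without epithelial transcript. Thinned to 2000 UMIs per cell, the shares of Cox7a1 were 1.82%, 0.123%, 2.01%, 0.655% and 0.851%, and Aire exceeded Ccl21a in 7 of 7 libraries with and without thinning. Cox6a2, the muscle form of subunit VIa, had 3.82% in Aire, 0.128% in Ccl21a, 1.52% in Trpm5 and 0.629% in cycling cells. Its thinned share was 1.13% in Aire cells, 1.05% in Ptprc-positive cells and 0.042% in Ccl21a cells, with Aire above Ccl21a in 6 of 7 libraries and no UMI in the 20 Aire cells of anti-RANKL week 4.

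Cox6b2, the testis form of subunit VIb, and Cox8b were the restricted isoforms that passed the filter on low values. Cox6b2 passed it only through the Aire and cycling gates, so some difference from the other gates was built into its passing. Its levels are therefore described, and its calls, though part of the counts above, are not read as a result. Its level had a lowest, median and highest library of 0.0434, 0.197 and 0.279 UMIs per 10000 in the Aire gate, 0.0567, 0.0731 and 0.0935 in the Ccl21a gate and 0.147, 0.241 and 0.831 in cycling cells. The 0.831 came from the 12 cycling cells of anti-RANKL week 4, the cycling library with most T cell transcript, and the highest of the other cycling libraries was at 0.381. Every cycling library was above every Ccl21a library, while the Aire libraries overlapped with them through the 20 cells of anti-RANKL week 4. Its call of Aire against Ccl21a, counted among the 20 higher members, was lost in 7 of 21 alternatives: with a pseudocount of 0.5 and when any 1 library other than anti-RANKL week 4 was left out. A UMI was seen in 18.0% of Aire, 4.59% of Ccl21a, 6.38% of Trpm5, 25.2% of cycling and 10.1% of Ptprc-positive cells. The thinned shares were 3.94%, 1.29%, 1.29%, 4.08% and 2.57%, with Aire above Ccl21a in 6 of 7 libraries (7 of 7 without thinning), and median depth was 11702, 7077.5, 8737, 22383 and 10250 UMIs in the same order.

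A few cells carried most of the Cox4i2 and Cox8b transcripts. Cox4i2, the oxygen-regulated partner of Cox4i1, had a UMI in 72 of 1441 Aire cells, and 18 cells with 5 or more held 362 of the 445 UMIs, 81.3% of them, with up to 77 in 1 cell. No Ccl21a cell had 5 or more. For Cox8b, the muscle form of subunit VIII, 12 Aire cells held 232 of 283 UMIs, and 18 Ccl21a cells held 208 of 414. The mean level of Cox8b ran from 0 to 0.326 across the Aire libraries, from 0.0699 to 0.569 across Ccl21a and from 0 to 0.962 across Trpm5, without a called difference between these gates, although 3 of 21 alternatives (thinned gates, at least 25 cells, or 2 further tuft markers) called it lower in Trpm5 than in Ccl21a cells. Cycling cells were at 0 to 0.0123. Ndufa4l2 was seen in 1.87% of Aire and 1.12% of Ccl21a cells, but 29 of its 35 Ccl21a cells and 111 of their 118 UMIs came from the Aire trace, and without that library it was seen in 6 of 2294 Ccl21a cells (0.262%). Cox7b2, listed in 3 libraries, was seen in 9 Aire cells, 7 of them in the isotype control of week 2, and in 1 Ccl21a cell.

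**Figure D4:**
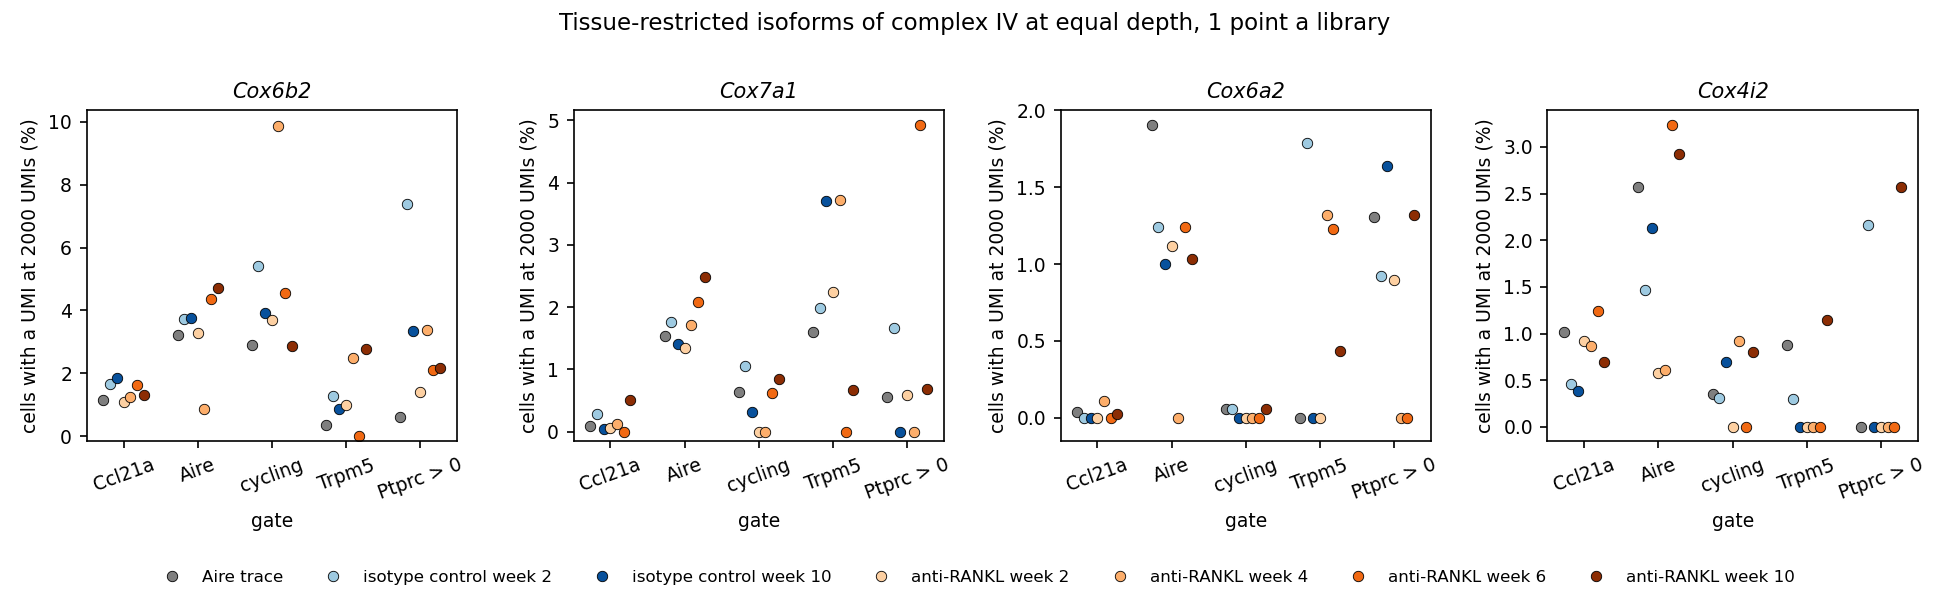
Percent of cells with at least 1 UMI of Cox6b2, Cox7a1, Cox6a2 and Cox4i2 by gate, each cell thinned to 2000 UMIs (linear axes), with 1 point per library and Ptprc-positive cells of the same sort beside the gates. For Cox7a1 the Aire points run from 1.34% to 2.49% and the Ccl21a points from 0% to 0.501%, and for Cox6b2 the cycling points (2.88% to 9.88%, or to 5.41% without the 12 cells of anti-RANKL week 4) all lie above the Ccl21a points (1.10% to 1.87%).

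Along the anti-RANKL time course few members passed 1.5-fold within the Ccl21a and Aire gates, while the gates themselves changed in share. Aire cells made up 33.0% and 37.3% of kept cells in the controls of weeks 2 and 10, and 4.31%, 1.49%, 11.9% and 31.2% at anti-RANKL weeks 2, 4, 6 and 10. Ccl21a cells made up 13.02% and 15.2% in the controls and 52.0%, 62.9%, 40.9% and 19.5% after anti-RANKL. The Aire trace, which was not given anti-RANKL, held 6.68% Aire and 62.5% Ccl21a cells, so such shares were not limited to treated libraries. With 1 library per time point there is no test, and a difference was counted when it passed 1.5-fold against the control of the same week (weeks 2 and 10) or both controls (weeks 4 and 6), over genes at 0.5 UMIs per 10000 or more, 70 or 71 of them members. In the Ccl21a gate 0 members passed at weeks 2 and 4 in each direction (5.97% of all genes higher and 6.25% lower at week 2, 4.95% and 5.54% at week 4). At week 6, 0 were higher and 1 lower (5.92% and 10.1%), and at week 10, 1 was higher and 0 lower (3.98% each way). The summed level of the 87 members in that gate was 266.1 and 269.0 UMIs per 10000 in the controls, and 247.9, 280.3, 277.7 and 265.1 at anti-RANKL weeks 2, 4, 6 and 10, that is 0.927, 1.05, 1.04 and 0.991 of the control mean. The same ratios were 0.971, 1.11, 1.06 and 1.01 in the Aire gate, with complex III at 1.25 at week 4, and 1.06, 0.995, 1.06 and 1.03 in cycling cells. In the Trpm5 gate they were 0.951, 1.16, 0.917 and 0.971, and the week 4 library, of 31 Trpm5 cells, was above both controls in complex I (1.20) and complex IV (1.19).

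**Figure D5:**
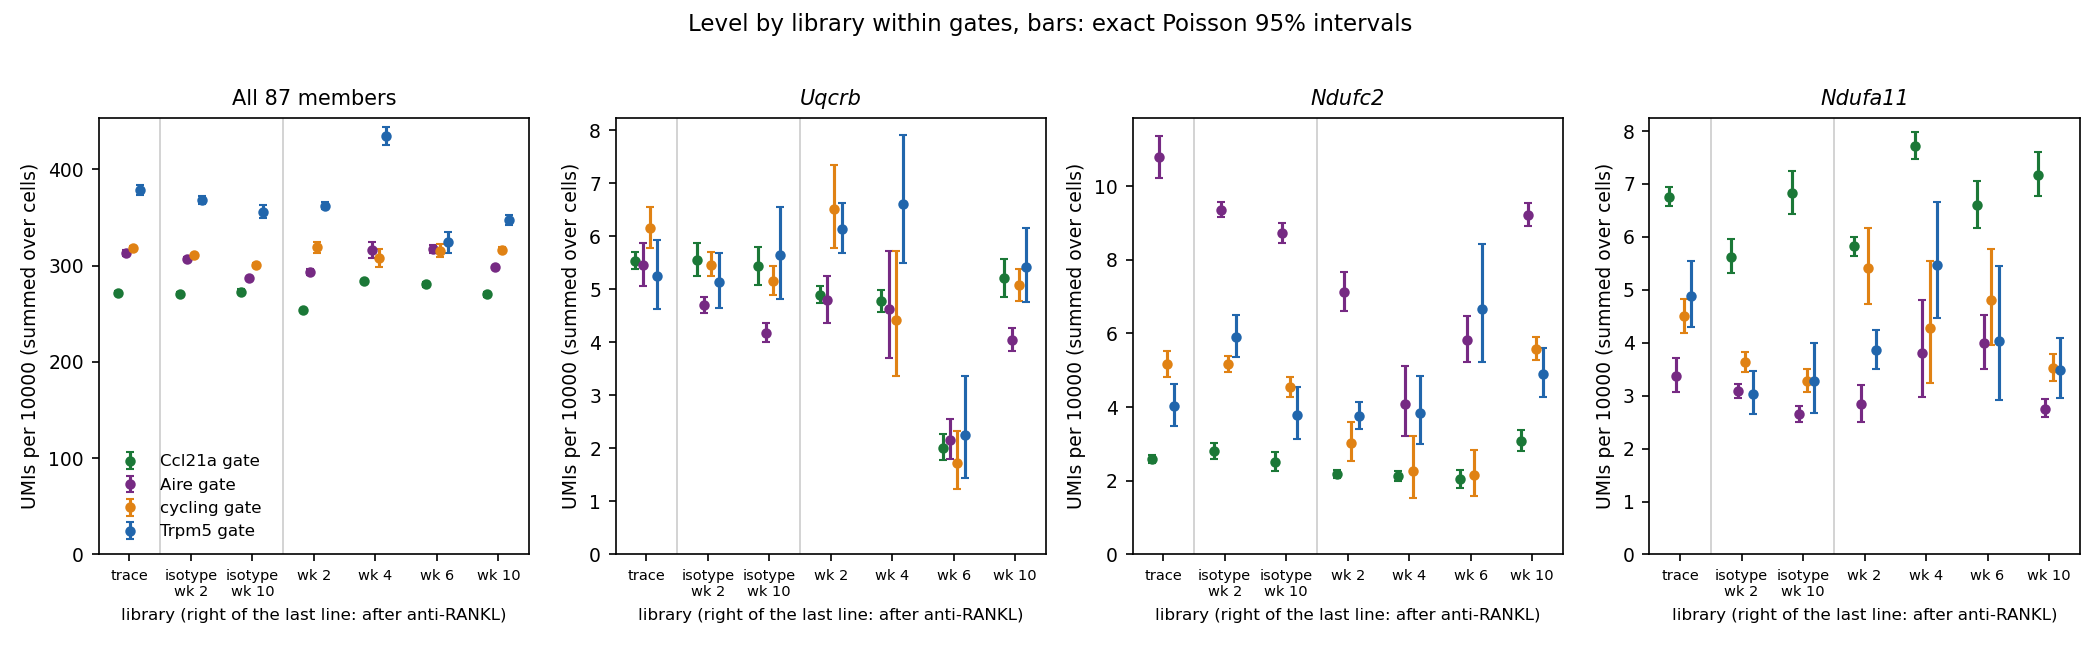
Levels by library and gate (UMIs per 10000, UMIs summed over the cells of a gate, linear axes from 0) of all 87 members, Uqcrb, Ndufc2 and Ndufa11, with exact Poisson 95% intervals that cover counting error only. The members together stay between 253.7 and 284.0 in the Ccl21a gate, Uqcrb drops to 2.01 in that gate at anti-RANKL week 6, and Ndufc2 is lowest in the Aire gate at week 4 (4.08).

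The 1 lower member at week 6 was Uqcrb (chr13:66900617-66905378, minus strand), a small subunit of complex III whose exons are overlapped by Gm10767 on the other strand. Its level in the Ccl21a gate was 1.97 UMIs per 10000 at anti-RANKL week 6 against 5.37 and 5.30 in the controls, 0.369-fold, and 60.2% of the cells held a UMI against 87.3% to 98.6% in the other libraries. It was lowest in that library in every gate, with 2.04 against 4.48 and 3.79 in the Aire gate, 1.71 in cycling cells and 2.53 in the Trpm5 gate. Summed over cells, the Ccl21a level was 2.01 with an exact Poisson interval of 1.78 to 2.27. The 13 mitochondrially encoded subunits were also low there, at 0.589 of the control mean in the Ccl21a gate (167 UMIs per 10000 against 252 and 316), 0.671 in the Aire gate, 0.461 in the Trpm5 gate and 0.661 in cycling cells, and their part in the result was not tested. A low value in all gates of 1 library cannot be told apart from a property of that library. The member that was higher at week 10 was the sparse isoform Cox8b, 0.569 against 0.229, which reached the minimum level of 0.5 only through that library.

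In the Aire gate, 0 members passed at week 2 (14.2% of all genes higher, 8.36% lower) and 0 at week 10 (2.69% and 2.47%). At week 4, on 20 cells, 4 were higher and 2 lower (21.6% and 15.8%), and at week 6, 1 was higher and 2 lower (11.6% and 15.2%). Uqcr10 was higher at both, by 2.07-fold and 1.54-fold, followed at week 4 by Ndufs8 (1.75-fold), Atp5k (1.71-fold) and Ndufa10 (1.56-fold). Of 7 alternative settings, 5 took Ndufa10 below the threshold at week 4 and 1 took Ndufs8, and at week 6 Uqcr10 fell below it in 3 and Ndufc2 in 4. Ndufc2 was lower: it stood at 9.41 and 8.42 UMIs per 10000 in the controls, 10.2 in the Aire trace, and 7.42, 4.34, 5.51 and 8.96 at anti-RANKL weeks 2, 4, 6 and 10. The same gene in cycling cells was at 5.19 and 4.63 in the controls, 5.06 in the trace and 2.94, 1.99, 2.06 and 5.40 at weeks 2 to 10. The make-up of the cycling gate differed between libraries, with Aire mTEC list sums of 2.90 to 12.4 and Ccl21a list sums of 13.9 to 163. The part of that make-up in these values was not tested. Over all Ptprc-negative cells, Ndufc2 was 0.407, 0.349 and 0.443 of its controls at weeks 2, 4 and 6, and Ndufa11 was 2.00-fold and 1.64-fold higher at weeks 4 and 6. Over the same cells of the Aire trace, not given anti-RANKL, Ndufc2 was at 3.70 UMIs per 10000 against 6.67 and 5.82 in the controls. Ndufa11 was at 5.97 there against 3.90 and 4.03. Both genes separated Aire from Ccl21a cells, whose shares moved along the same time points, and the part of those shares in the result was not tested beyond the values within each gate. Members called among all such cells numbered 0 higher and 1 lower at week 2 (15.9% and 16.5% of all genes), 1 and 1 at week 4 (16.6% and 19.8%), 1 and 2 at week 6 (13.1% and 21.2%) and 0 at week 10 (3.31% and 0.985%).

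Spread over the 7 libraries was measured in the Ccl21a gate. The coefficient of variation of 70 members over the libraries had a median of 8.51%, ranged from 3.33% to 26.3% and was under 15% for 65, beside a median of 14.7% and 1354 of 2618 genes of the same minimum level. The genes were not matched for level beyond that minimum. The highest values belonged to Uqcrb (26.3%), Atp5g3 (16.3%), Uqcr10 (15.8%), Ndufa9 and Atp5k (15.2% each).

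Promoter sequence was read for the members, whether or not they differed between gates, since nuclear respiratory factor 1 (NRF1) is a known activator of genes of this system. RefSeq promoters on GRCm38.p6, 250 bases before to 50 after each start, were available for 73 members. The NRF1 palindrome, spelled out in capitals in the windows below, lay in 7 of them (9.59%) and in the promoters of 290 of 27025 genes (1.07%). On both strands, the ETS motif CCGGAAG matched for 20.5% of members with a promoter against 9.93% of genes, the YY1 motif AAGATGGCG in 10.96% against 1.64% and the E-box CACGTG in 9.59% against 8.09%. The ETS motif ends and the YY1 motif starts with the same letters, so that a match of each can overlap. The windows below are given 5′ to 3′ on the gene's strand with the NRF1 motif in capitals, and show the 5 members with the whole motif upstream of the start, among them the opposite movers Cox6a1 and Ndufa11.
Atp5g2: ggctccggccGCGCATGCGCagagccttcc
Atp5k: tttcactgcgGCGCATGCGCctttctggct
Cox6a1: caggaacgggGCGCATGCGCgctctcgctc
Ndufa11: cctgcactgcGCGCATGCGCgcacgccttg
Ndufaf4: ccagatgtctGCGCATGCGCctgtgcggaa
They lie at chr15:102671070-102671099 (minus strand), chr5:108434430-108434459 (minus), chr5:115349101-115349130 (minus), chr17:56717692-56717721 (plus) and chr4:24897960-24897989 (plus). A match describes the letters in the window and shows no binding. The motif was thus present both in Cox6a1, higher in the Trpm5 gate than in the Ccl21a gate, and in Ndufa11, lower there.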

How the data were processed

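The authors deposited, for each library, natural log values of 1 plus a gene's UMIs per 10000 UMIs of the cell (ln). Per the labels and the study's methods, UMIs were counted with Cell Ranger 2.2.0 on mm10, and Seurat 2.3.4 kept cells of 200 to 7500 genes with at most 10% mitochondrial reads and genes seen in at least 3 cells. The methods state a scale factor of 1000, whereas the values of every cell sum to 10000 on the linear scale. Whole UMIs were recovered in every cell (tolerance 0.001). Tables that combine libraries were not used, and no doublet caller was run. Members and lists were chosen with earlier results of these data known. Mean levels of cells of at least 2000 UMIs were taken per library and gate with at least 10 cells, and genes of mean level over 0.1 were tested as log2(level + 0.1) with limma 3.58.1 (R 4.3.3), gate plus library as terms and trended, adjusted by Benjamini-Hochberg over 8759 genes. Fold changes on this scale understate low genes. Summaries used Python 3.11.15, numpy 2.4.6, pandas 2.3.3 and scipy 1.17.1, and figures matplotlib 3.10.9. On simulated levels for Aire against Ccl21a (8632 genes tested), 75% of genes changed 2-fold and 10% of those changed 1.3-fold were recovered. The simulation gave every gene the same dispersion and no spread between cells, so these rates need not hold for thin gates or sparse genes. Named were the 3 members with the largest difference in each direction, those opposite to the majority, the restricted isoforms and, for other lists, at most 3 genes each. Exons overlapped by a gene on the other strand were found for 28 of 86 placed members, and by a gene on the same strand, which strand cannot resolve, for 4 (Atp5g2, Ndufb2, Ndufb8 and Ndufb9). One member is counted but its own values are not reported here. The alternatives are given at the end.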

Additional observations from a re-analysis of the deposited data

How the results depend on the processing

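Of the counts, medians and shares that answer a comparison, 427 recomputed values stayed within the limits set for them and 54 moved, while values for single members stayed in 1219 cases, fell below the threshold in 81 and passed it in 3 (Cox8b in Trpm5 against Ccl21a). For Aire against Ccl21a, 14 members were lower with ribosomal, mitochondrial and Ccl21 transcripts out of the total, and 14 with at least 25 cells per gate. For cycling against Aire, the number higher was 15 with gates set on cells thinned to 2000 UMIs, 12 without the 5% of cells with most UMIs, 18 without the 4 anti-RANKL libraries and 18 to 29 when single libraries were left out, and the number lower was 5 without cells holding a T cell marker and 4 when cycling cells also had to pass the Aire gate. For cycling against Ccl21a, 7 were lower with at least 25 cells, 2 without the anti-RANKL libraries, and 20 higher when cycling cells also passed the Ccl21a gate. For Trpm5 against Ccl21a, the 3 lower members became 5 (at least 4000 UMIs, a mean level over 0.5, or restricted cycling cells), 6 (thinned gates, no deepest cells, 2 cycling genes, or further tuft markers), 7 (total without ribosomal genes, at least 25 cells, or no anti-RANKL library), 9 (median gene of each mean set to 0) and 1 to 6 with single libraries left out (1 without the isotype control of week 10, 6 without anti-RANKL week 4); the median was 0.201 with overlapping gates, 0.223 on the reduced total and 0.167 with the median gene at 0. For Trpm5 against Aire, the median was 0.176 with overlapping gates, 20 were higher, 13 lower and the median 0.066 with the median gene at 0, and 3 were lower on summed UMIs.

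Along the time course in the Ccl21a gate, 0 members were higher at week 10 at a minimum level of 2 or without T cell markers, and 2 were lower at week 6 with thinned gates or without T cell markers. The summed level over the control mean at weeks 2, 4, 6 and 10 was 0.934, 1.068, 1.053 and 1.003 in cells of at least 4000 UMIs, 0.953, 1.074 and 1.072 at weeks 2, 4 and 6 on the reduced total, and 1.026 and 0.982 at weeks 6 and 10 without T cell markers. Thinned shares moved for Cox4i2 (2.17% Aire, 0.889% Ccl21a), Cox6a2 (1.13% Aire), Cox6b2 (3.94% and 1.29%) and Cox7a1 (1.82% and 0.123%). Signs turned for uncalled isoform differences only: Cox6b2 in Trpm5 against Ccl21a was 0.002 (at least 4000 UMIs), 0.077 (summed UMIs), 0.027 (at least 25 cells) and -0.249 to 0.022 with single libraries left out (above 0 without anti-RANKL week 6), and Cox8b in Trpm5 against Aire was -0.136 (overlapping gates), -0.925 (thinned), -0.084 (median gene at 0), -0.535 (at least 25 cells), -0.059 (no deepest cells), -0.332 to 0.488 with single libraries left out (-0.089 and -0.332 without anti-RANKL weeks 4 and 6) and -0.399 (further tuft markers). The cause of these moves was not tested. The gates share each library, which was a term in every fit. No paired test of the treatment was run, as each anti-RANKL time point is 1 library. At weeks 2 and 10 that library was set against the control of the same week. Depth limits the sparse isoforms, and the number of cells limits the gates of 12 to 20.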

Other observations

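Genes around the respiratory chain did not all move with its subunits. In the Trpm5 gate, Sdha, the flavoprotein of complex II, stood at 5.51 ± 1.79 UMIs per 10000 (SD, n = 7; 3.43 to 8.74 over the libraries) against 0.863 ± 0.102 in the Ccl21a gate and 0.642 ± 0.067 in the Aire gate, log2 differences of 2.49 ± 0.14 and 2.86 ± 0.14 (SE; limma adjusted p = 2.61e-14 and 1.21e-15). The other complex II subunits Sdhb, Sdhc and Sdhd did not pass the test in these comparisons, with log2 differences from -0.09 to 0.25. Of a list of 11 further genes (complex II, the cytochromes Cyc1 and Cycs, 3 carriers, Atpif1 and Usmg5), 3 were higher and 2 lower against Ccl21a (25.1% and 20.1% of all genes) and 4 and 1 against Aire (31.0% and 18.4%), where the adenine nucleotide carrier Slc25a4 was at -0.77. All 13 mitochondrially encoded genes were higher against both (medians 0.68 and 0.61). Cox17, a copper chaperone for the oxidase, differed by 1.90 from the Ccl21a gate, and among regulators Esrra, a nuclear receptor that activates oxidative genes, by 1.08 and 1.54, while Tfam, which maintains mitochondrial DNA, was at -1.16 against Ccl21a. Of 75 mitochondrial ribosomal genes, 13 were higher and 12 lower against Ccl21a, both below the shares of all genes.

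In the Aire gate against the Ccl21a gate, Cox17 (6.91 ± 0.99 against 2.16 ± 0.32 UMIs per 10000) differed by 1.64 and Tfam by -1.02, and 2 of 14 glycolysis genes were higher and 7 lower (18.9% and 26.9% of all genes). In cycling cells against the Aire gate, 8 of the same 11 further genes were higher and none lower (19.3% and 16.9% of all genes), led by the carrier Slc25a5 (1.11) and by Cyc1 (0.86), the haem-bearing cytochrome of complex III. Of the mitochondrially encoded genes 1 was higher and 5 lower, of 75 mitochondrial ribosomal genes 30 were higher and 5 lower, and of 14 glycolysis genes 7 and 2. The lists share these 7 libraries and were chosen with earlier results of the data known.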
